A study of Mus musculus with 16 samples.

Results

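The major urinary protein (Mup) genes Mup3, Mup4, Mup5, Mup6, Mup20 and Mup21 were examined in DNase-seq data of mouse liver. These 6 protein-coding genes, of 21 protein-coding Mup genes on chromosome 4 and 37310 annotated genes in all, were chosen by name, not by a measured value. DNase-seq finds stretches of open chromatin, where the enzyme DNase I releases short fragments from nuclei, and such a stretch is called a DNase hypersensitive site (DHS). A DHS belonged to a member when it overlapped the gene or the 20 kb on either side of it in the mm9 assembly. By this rule the members held 8 of the 51482 DHS regions of the series, made of 17 peaks. Nuclei came from livers of untreated male and female mice, 8 weeks old, of 1 of 2 inbred strains, C57BL/6J (B6), the source of the mouse reference genome, or the wild-derived CAST/EiJ (CAST). All were digested with 32 U of DNase I. The 16 libraries formed 4 groups of 4, male B6, female B6, male CAST and female CAST. The authors merged the 4 libraries of a group before calling DHS, so each group is a single list with no spread between replicates, and no test between lists was possible.

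Major urinary proteins are small lipocalins, barrel-shaped carriers of volatile pheromones and metabolites, which hepatocytes secrete and the kidney passes into urine. They are known for their abundance in adult male mouse liver, where the male pattern of growth hormone pulses and glucocorticoids raise their transcription. Mup20 encodes darcin, a male scent signal that females are attracted to, and Mup4 and Mup5 are best known from secretory glands outside the liver. The genes lie in 1 cluster of recent duplicates mixed with pseudogenes. The members' coding sequences of 537 to 555 bases were 83.0% (Mup3 and Mup6) to 94.8% (Mup3 and Mup21) identical in pairs.

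The list of B6 males held 38751 DHS, that of B6 females 26271, that of CAST males 39562 and that of CAST females 24888. The lists hold no read totals, and the genome-wide background recovered from the lists was 15.3, 13.9, 14.2 and 7.94 overlapping fragments, in the same order. Among DHS at that background the lowest fold enrichment, the deposited ratio of summit signal to background, was 1.9, 1.94, 1.9 and 2.24. Where the local background was higher, DHS were listed at lower ratios. Of 8 hepatocyte markers, 7, 6, 7 and 6 had a DHS within 1 kb of a start site, against 0 of 5 for Kupffer cells and 0 of 5 for lymphocytes and blood in every list. Markers of sinusoidal endothelium were found for 5, 3, 2 and 1 of 5, and Stab2 was listed in all 4. Stellate cell markers were found for 2, 1, 1 and 0 of 5, and bile duct markers for 2, 1, 2 and 1 of 5. The part of these cells in the results was not tested.

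Of the 6 genes, 4 had a DHS within 20 kb and Mup4 and Mup6 had none in any list. Mup3 (chr4:61744510-61748376) held 2 regions, found in all 4 lists. With a stricter threshold, a −log10 q of at least 15.7, both were left in the male lists alone. With lists of equal size, or with pileups scaled to the list with the lowest background, both stayed in all 4 lists. Mup20 (chr4:61711268-61715192) held 3, Mup21 (chr4:61808966-61811897) held 2 and Mup5 (chr4:61492353-61496267) held 1, and each of these was missing from at least 2 lists. B6 males had 5 of the 8 regions, B6 females 2, CAST males 6 and CAST females 3. In the series as a whole the male lists were also the longer, with 38751 DHS against 26271 in B6 and 39562 against 24888 in CAST. All 8 member regions lay on the right-hand side of the cluster, while Mup4 (chr4:59969676-59973582) and Mup6 (chr4:59977166-60020146) lie at its left end. Apart from Mup6 the members are transcribed from the minus strand, so upstream is to the right.

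**Figure D1:**
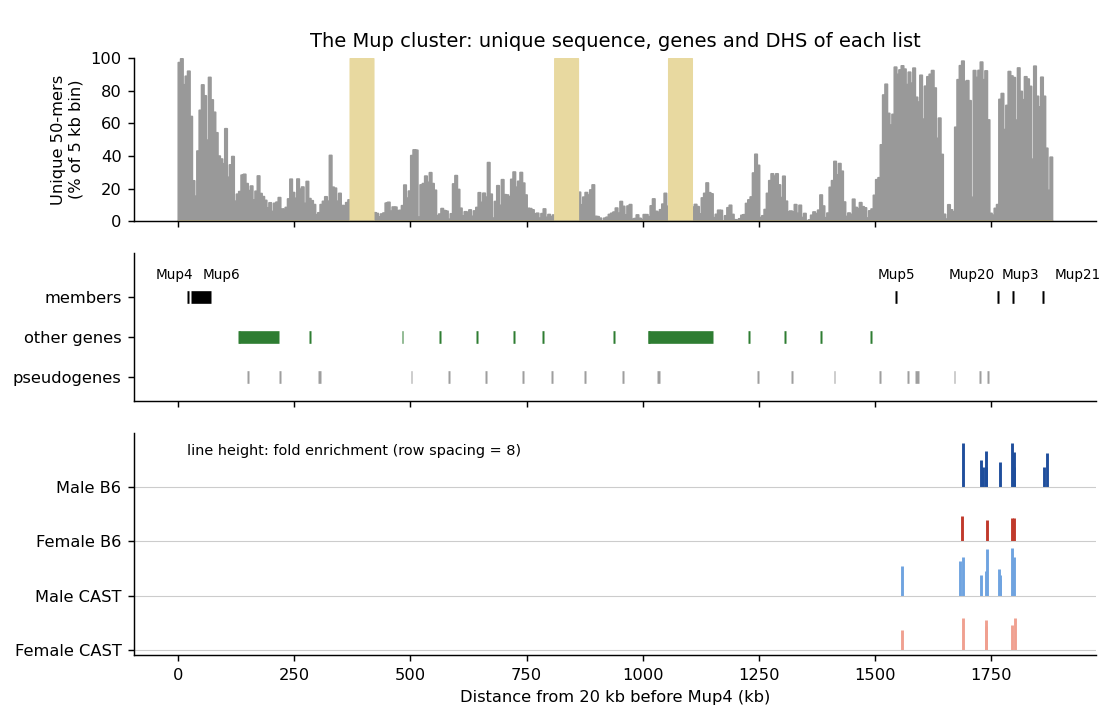
Share of 50-base sequences found once in mm9 in bins of 5 kb (top, yellow where the assembly has no sequence), Mup genes and pseudogenes (middle) and DHS summits of each pooled list (bottom, line height is fold enrichment), by distance in kb from 20 kb before Mup4. The DHS stand at the right-hand end, in and beside stretches of unique sequence, and no list has any from Mup4 to Mup19.

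The sequences at the summits that the results turn on are shown first, each with 300 bases of mm9 on the strand of its gene. Capitals mark matches to short motifs of liver factors, which are described further on, and the Mup5 sequence holds none. Both Mup3 sites were open in every list, and the Mup21 and Mup5 sites were each found in 1 strain.
Mup3 downstream (chr4:61743815-61744114, minus strand): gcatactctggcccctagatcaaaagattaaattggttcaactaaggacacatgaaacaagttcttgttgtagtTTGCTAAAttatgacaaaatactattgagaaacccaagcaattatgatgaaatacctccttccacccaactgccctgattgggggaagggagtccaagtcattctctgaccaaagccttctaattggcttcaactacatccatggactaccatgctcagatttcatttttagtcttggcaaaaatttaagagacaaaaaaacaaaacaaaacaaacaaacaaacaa
Mup3 upstream (chr4:61748819-61749118, minus strand): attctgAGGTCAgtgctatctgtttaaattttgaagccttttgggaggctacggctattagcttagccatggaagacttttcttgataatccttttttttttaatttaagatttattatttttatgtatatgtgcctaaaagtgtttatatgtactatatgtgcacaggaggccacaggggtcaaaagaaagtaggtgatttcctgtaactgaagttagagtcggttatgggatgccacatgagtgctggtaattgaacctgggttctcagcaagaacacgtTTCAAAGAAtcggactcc
Mup21 far upstream (chr4:61819587-61819886, minus strand): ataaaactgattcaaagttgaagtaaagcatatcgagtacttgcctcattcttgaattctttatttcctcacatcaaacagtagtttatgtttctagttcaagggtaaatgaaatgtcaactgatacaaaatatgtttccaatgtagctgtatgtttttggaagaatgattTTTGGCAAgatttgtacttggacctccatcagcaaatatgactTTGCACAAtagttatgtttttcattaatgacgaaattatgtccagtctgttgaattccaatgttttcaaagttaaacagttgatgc
Mup5 far upstream (chr4:61505996-61506295, minus strand): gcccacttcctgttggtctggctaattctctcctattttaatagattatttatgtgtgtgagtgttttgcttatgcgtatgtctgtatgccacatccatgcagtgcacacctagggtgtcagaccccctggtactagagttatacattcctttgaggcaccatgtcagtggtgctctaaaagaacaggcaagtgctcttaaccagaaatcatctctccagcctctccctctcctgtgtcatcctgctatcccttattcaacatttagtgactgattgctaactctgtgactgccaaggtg

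In the male lists the strongest DHS of the members lay past the 3′ end of Mup3, at chr4:61743340-61744698. Its fold enrichment was 6.49 for B6 males, 3.42 for B6 females, 7.04 for CAST males and 3.69 for CAST females. Both male values were above both female values, and the strains differed little within a sex. In both female lists the other Mup3 region, described next, was the stronger. The summit lay 4412 bp past the start site in the strongest list, 546 bp beyond the end of the gene, and the region reached into the last exon, which is 3′ untranslated, in all lists but that of B6 females. Among all DHS of its own list it stood at percentile 83.2, 53.8, 83.3 and 41.7, in the same order, so it ranked high in the males and near the middle in the females.

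The counts behind these ratios were recovered from the deposited values. The summit held 156 overlapping fragments for B6 males (95% Poisson interval 132 to 182), 50 for B6 females (37.1 to 65.9), 129 for CAST males (108 to 153) and 32 for CAST females (21.9 to 45.2). The intervals, which cover counting error only, did not overlap between the sexes in either strain, with the lists unequal in background as given before. The local background was 23.2 fragments in male B6 and 17.5 in male CAST, above the genome-wide value, and equal to it in both female lists (13.9 and 7.94). Against the genome-wide background the summit stood at 10.2, 3.59, 9.05 and 4.03-fold. The ratio between the sexes was larger on that scale, but so was the median ratio of all regions, which was 1.67 in B6 and 1.39 in CAST against 1.32 and 1.19 by the deposited values.

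The other Mup3 region, chr4:61748116-61749374, lay over and upstream of the start site. Its fold enrichment was 5.26 for B6 males, 3.48 for B6 females, 5.71 for CAST males and 4.7 for CAST females. The males again stood above the females of their strain, but the gap was narrower than at the 3′ end. The summit fragments were 115 (94.9 to 138), 51 (38.0 to 67.1), 101 (82.3 to 123) and 41 (29.4 to 55.6). In male B6 the region was made of 2 peaks, the stronger 683 bp upstream of the start site and a weaker one with fold enrichment 2.99 and 82 fragments whose summit lay 127 bp inside the gene. In male CAST 1 peak of 1138 bp spanned both positions. The peaks of female B6 (461 bp wide) and female CAST (496 bp) stopped short of the start site. The lists were unequal in background, and these are called peak edges. By them the start site of Mup3 was therefore under a DHS in both male lists and in neither female list. The weaker male B6 peak, which covers it there, did not pass the stricter threshold, under which only male CAST had a DHS over the start site. The region also touched the first exon of Gm12909, a noncoding transcript on the other strand, and DNase-seq does not tell the strands apart.

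**Figure D2:**
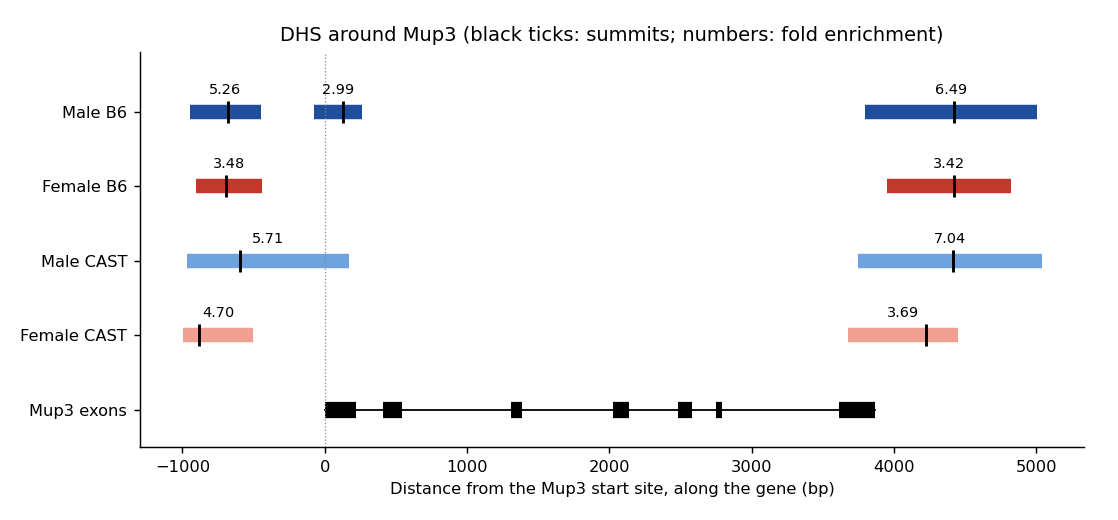
DHS called around Mup3 in each pooled list, as bars from first to last base by distance from the start site in bp along the gene, with summits as black ticks and fold enrichment above each bar; Mup3 exons are drawn at the bottom. Only the male lists have a DHS over the start site, and all 4 lists have one past the 3′ end.

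The summits of the 4 lists lay within 196 bp of each other at the downstream region and within 288 bp at the upstream region. At the downstream region the summits of male B6, female B6 and male CAST were at 61743958, 61743956 and 61743964, and that of female CAST at 61744152. Female CAST, the list with the lowest background, was thus the only one to stand apart there. Coordinates of the CAST lists were converted by the authors from a CAST version of the genome.

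Mup20 had 3 regions, in males alone. The first, chr4:61717269-61717585, had a fold enrichment of 3.67 in male B6 (59 fragments, 44.9 to 76.1) and 2.49 in male CAST (37 fragments, 26.1 to 51.0), with summits 2316 and 2288 bp upstream of the start site. The second, chr4:61715671-61715986, was found in male CAST alone at 4.0 (60 fragments, 45.8 to 77.2), 710 bp upstream. The last, chr4:61718500-61718774, was also found in male CAST alone, at 3.08 (46 fragments, 33.7 to 61.4), 3409 bp upstream. The gene of the male signal protein darcin thus had a DHS in both male lists and in no female list. This was the pattern of its first region, as of 9.38% of all regions of the series. With the stricter threshold only the second region was left, in male CAST, and with lists of equal size the first was left in male B6 and the second in male CAST, so that no region was shared by the male lists. Only 15.8% of the 50-base sequences in the second region occur once in mm9, against 96.2% in the first and 96% in the last. The B6 reads were mapped to mm9 itself and the CAST reads to a version of it with CAST variants, in which this share was not computed, so for the second region a difference between strains and a difference in where reads could be placed cannot be told apart.

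Mup21 had 2 regions, both in male B6 alone. The region at chr4:61811749-61812087 covered the start site and reached into the first exon, with a fold enrichment of 2.94 (47 fragments, 34.5 to 62.5), and its summit lay 59 bp upstream. The region at chr4:61819492-61819879 had 5.01 (81 fragments, 64.3 to 101) with its summit 7839 bp upstream. The far site was the stronger and stood at percentile 71.4 of its list, the near one at 36.9. The near one was lost under the stricter threshold and with lists of equal size, and the far one was kept under both. Of their 50-base sequences, 90.7% and 99.7% occur once in mm9, far and near.

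Mup5 had 1 region, chr4:61505762-61506351, in the 2 CAST lists alone. Its fold enrichment was 4.39 in male CAST (66 fragments, 51.0 to 84.0) and 2.91 in female CAST (25 fragments, 16.2 to 36.9), and the summits lay 9878 and 9867 bp upstream of the gene. Under the stricter threshold it was left in male CAST alone. Every 50-base sequence in it is unique in mm9 (100%). No list had a DHS within 1 kb of the Mup5 start site.

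**Figure D3:**
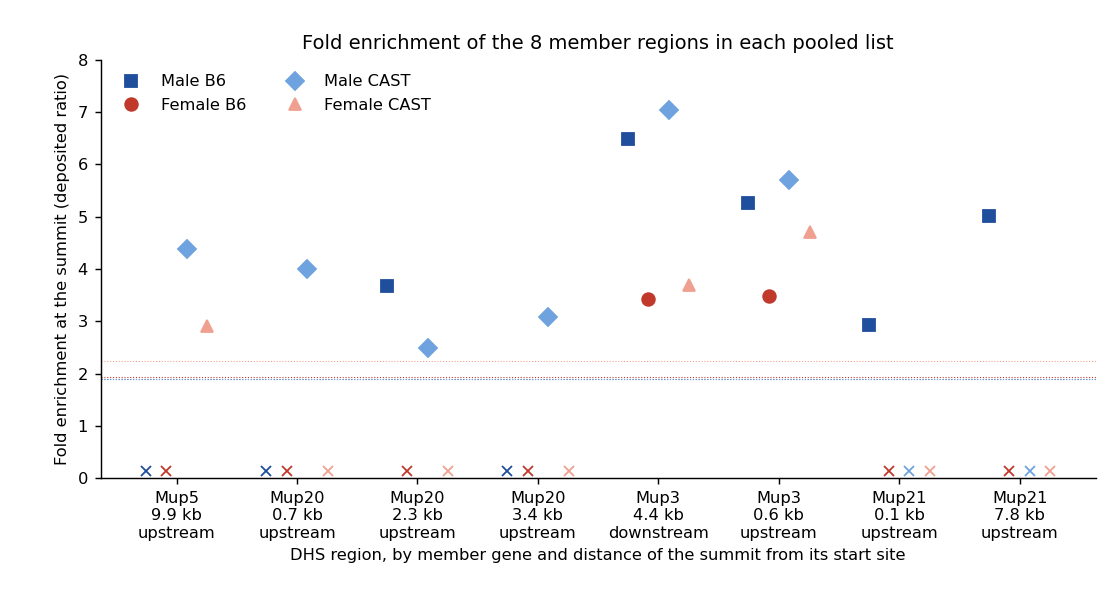
Fold enrichment at the summit, the deposited ratio, of each of the 8 member regions in the 4 pooled lists; a cross near the axis marks a list without the region and dotted lines the lowest fold enrichment listed at genome-wide background (1.9 to 2.24). There is 1 value for each list and so no error bar; both Mup3 regions have 4 values, while each other region has 1 or 2.

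By the pattern over lists, 2 of the 8 regions were in all 4 lists, as were 35.6% of all regions of the series. The pattern of both male lists without a female one was that of 1 of 8 (9.38% of all regions), and the pattern of both CAST lists without a B6 one that of 1 of 8 (3.62%). Single-list regions were 4 of 8 (35.2%). Just inside the 20 kb, the farthest region was that of Mup5, 9495 bp from the gene at its near edge. Just outside, 2006 bp beyond the window of Mup20, chr4:61688684-61689262 was found in all 4 lists with fold enrichments of 5.38, 3.15, 6.88 and 4.47. Next came chr4:61687409-61687799, 3469 bp beyond it (3.0 for B6 males, 3.61 for CAST males and 3.58 for CAST females), and chr4:61835599-61835831, 3702 bp beyond the window of Mup21 (2.94 in male B6).

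To ask whether chromatin at these genes differed between the sexes, the ratio of male to female fold enrichment was taken for each region found in both lists and divided by the median ratio of all such regions, which was 1.32 in B6 and 1.19 in CAST. A region was called higher in a list when this centred ratio passed 1.5-fold or when the other list lacked it. In B6, 3 of 5 member regions were called higher or found only in males, against 38.0% of the 40466 regions tested, and 0 of 5 in females, against 6.64%. All 3 were regions that female B6 lacked. In CAST, 4 of 6 were called higher or found only in males, against 42.2% of 40826, and 0 of 6 in females, against 5.33%. No member region had a higher deposited fold enrichment in the female list of either strain. Male-only regions are common in the series as a whole, and no test was run on so few regions.

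For Mup3, both sites could be compared by ratio. At the downstream region the male to female ratio was 1.9 in B6 and 1.91 in CAST before centring, and 1.44 and 1.6 after it. These centred ratios stood at percentile 96.3 of 23644 regions in both B6 lists and 98.1 of 22764 in both CAST lists. At the upstream region they were 1.51 and 1.21 before centring, and 1.14 and 1.02 after it, at percentile 76.9 and 54.4. The downstream site of Mup3 thus had a higher male to female ratio than most regions found in both lists, in both strains. The upstream site was nearer the median. Regions found in 1 list alone have no ratio and are not in this ranking. By the 1.5-fold limit the downstream region was called in CAST, at 1.6, and not in B6, at 1.44. With the genome-wide background in place of the local one, an alternative chosen after seeing the data, the centred ratios were 1.69 and 1.61 downstream and 1.22 and 0.985 upstream, and the downstream region then passed the limit in B6 too.

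For the other members most ratios could be taken only against the lowest fold enrichment listed at genome-wide background. The Mup5 region had a centred male to female ratio of 1.27 in CAST, percentile 88.2. Against that of female B6, 1.94, the male B6 values were 2.58-fold higher at the far Mup21 region, 1.89-fold at the first Mup20 region and 1.51-fold at the Mup21 start site. Against that of female CAST, 2.24, the male CAST values were 1.79, 1.11 and 1.38-fold higher at the second, first and last Mup20 regions. These ratios are not centred. The first and last Mup20 sites, at 2.49 and 3.08 in male CAST, were nearer to that value of female CAST than the second, at 4.0.

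Between the strains, the Mup3 sites were close in males. In males, 3 of 8 member regions were called higher or found only in B6, against 21.8% of 48528, and 3 of 8 in CAST, against 24.9%. In females, 0 of 3 were called higher or found only in B6, against 24.6% of 31472, and 1 of 3 in CAST, against 21.2%. The median ratio of B6 to CAST fold enrichment was 0.947 in males and 0.842 in females. At the downstream and the upstream Mup3 region the centred ratios were 0.972 and 0.973 for males, against 1.1 and 0.88 for females. These fell between percentile 27.7 and 67.9 of all regions in both lists of that sex, so neither Mup3 site stood out by strain.

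Calls between the strains were at the other members. The first Mup20 region was higher in male B6, with a centred ratio of 1.55 at percentile 96.4, and a ratio of 1.47 before centring, under the 1.5-fold limit. The far and near Mup21 regions were 2.64 and 1.54-fold higher in male B6 than the lowest fold enrichment male CAST listed at genome-wide background. The Mup5 region was 2.31-fold higher in male CAST than that value of male B6, and 1.5-fold higher in female CAST than that of female B6. The second and last Mup20 regions were 2.11 and 1.62-fold higher in male CAST by the same measure, and for the second the limit on read placement given before holds. All 4 lists pool 4 libraries, so which of these differences exceed the spread between mice was not tested.

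**Figure D4:**
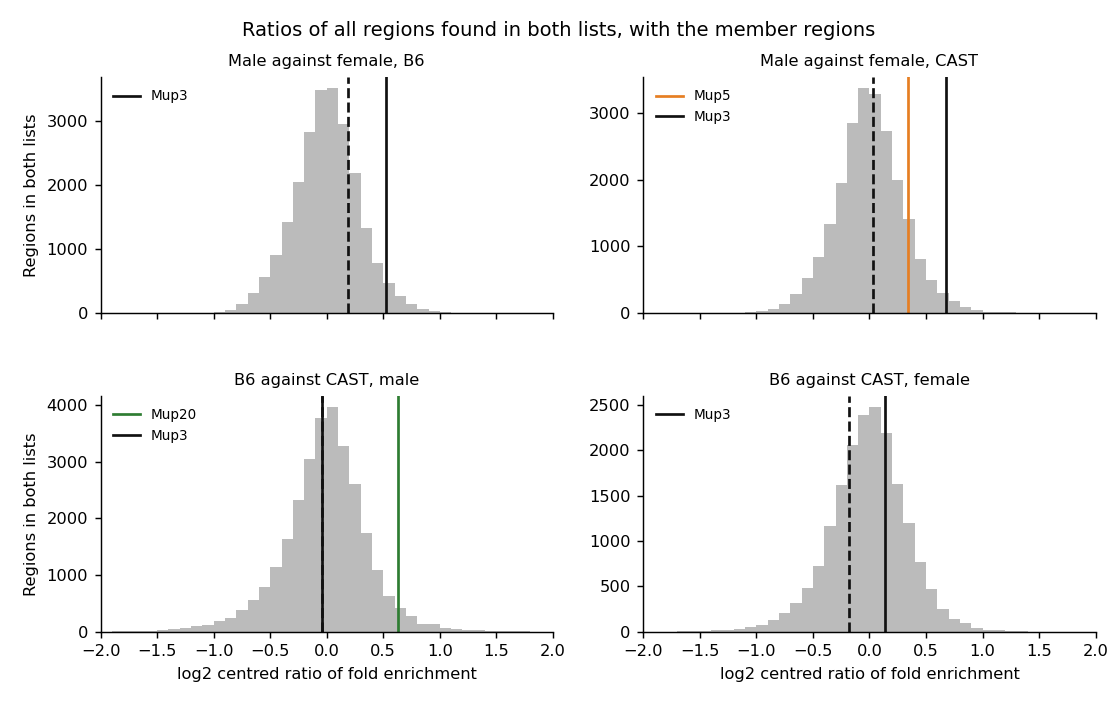
Number of regions found in both lists by log2 centred ratio of fold enrichment, for male over female and B6 over CAST, with the member regions as vertical lines (solid black, Mup3 downstream; dashed black, Mup3 upstream). The downstream Mup3 region lies in the right-hand tail for both sex comparisons and near the middle for both strain comparisons.

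Whether reads could be placed in these windows was measured, since only uniquely mapped reads of 50 bases were used. Over the 6 windows together (254427 bases), 66.8% of positions start a 50-base sequence that occurs once in mm9, against 96.7% in 500 kb before the cluster and 91.1% in 500 kb after it. By member the share was 82.9% for Mup5, 78.9% for Mup3, 68.7% for Mup4, 64.7% for Mup6, 63.1% for Mup21 and 40.1% for Mup20. The member with the lowest share, Mup20, had the most regions, and Mup4 and Mup6, with none, lay in the middle. The first and last Mup20 regions were themselves 96.2% and 96% unique, and the second 15.8%. Whether the share had a part in the number of regions was not tested. In the 1 kb upstream of the start site the share was 96.4% for Mup21, 96.3% for Mup4, 94.6% for Mup5, 93.4% for Mup3, 92.7% for Mup6 and 32.9% for Mup20. Pairing of reads adds to what can be placed and was not modelled.

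Between the last DHS before the cluster and the Mup5 region, no list had a DHS in 1622 kb (chr4:59884180-61505761), which hold 18 Mup genes and 15 pseudogenes. Only 20.3% of positions there start a unique 50-base sequence, 33.5% for 100 bases, and 9.26% have no sequence in mm9. In the genome as a whole, 110 of 51460 stretches between neighbouring regions were at least this long, and the median was 11.8 kb. Of the 15 Mup genes that are not members, 0 had a DHS within 20 kb, and the unique share in the 1 kb upstream of their start sites ran from 1.2% (Mup15) to 31.9% (Mup16), with a median of 9.4%. Among 20 Mup pseudogenes, 4 had a DHS within 20 kb, Mup-ps17, Mup-ps19, Mup-ps20 and Mup-ps21, and the upstream share ran from 3.6% (Mup-ps14) to 97.7% (Mup-ps20).

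Copies of the open sequences elsewhere in the cluster were compared with the DHS lists. The 300 bases at the upstream Mup3 summit matched 40 other places in the cluster over at least 150 bases, at 77.7% to 88.9% identity. Of the 6 of these in which over 50% of 50-base sequences were unique, 1 had a DHS, at Mup-ps20, and of the other 34, 1 had a DHS, at Mup20. The other 5 of the 6 had no DHS in any list. At 3 of them the position was like that of Mup3, centred 589 bp upstream of Mup4, 587 bp upstream of Mup6 and 621 bp upstream of Mup5, where 90.3%, 90.3% and 100% of the sequence was unique. The others were 734 bp upstream of Mup-ps18 and, over 225 bases, 554 bp upstream of Mup21, both with 100% unique sequence. These shares are for mm9, and those in the CAST version were not computed.

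**Figure D5:**
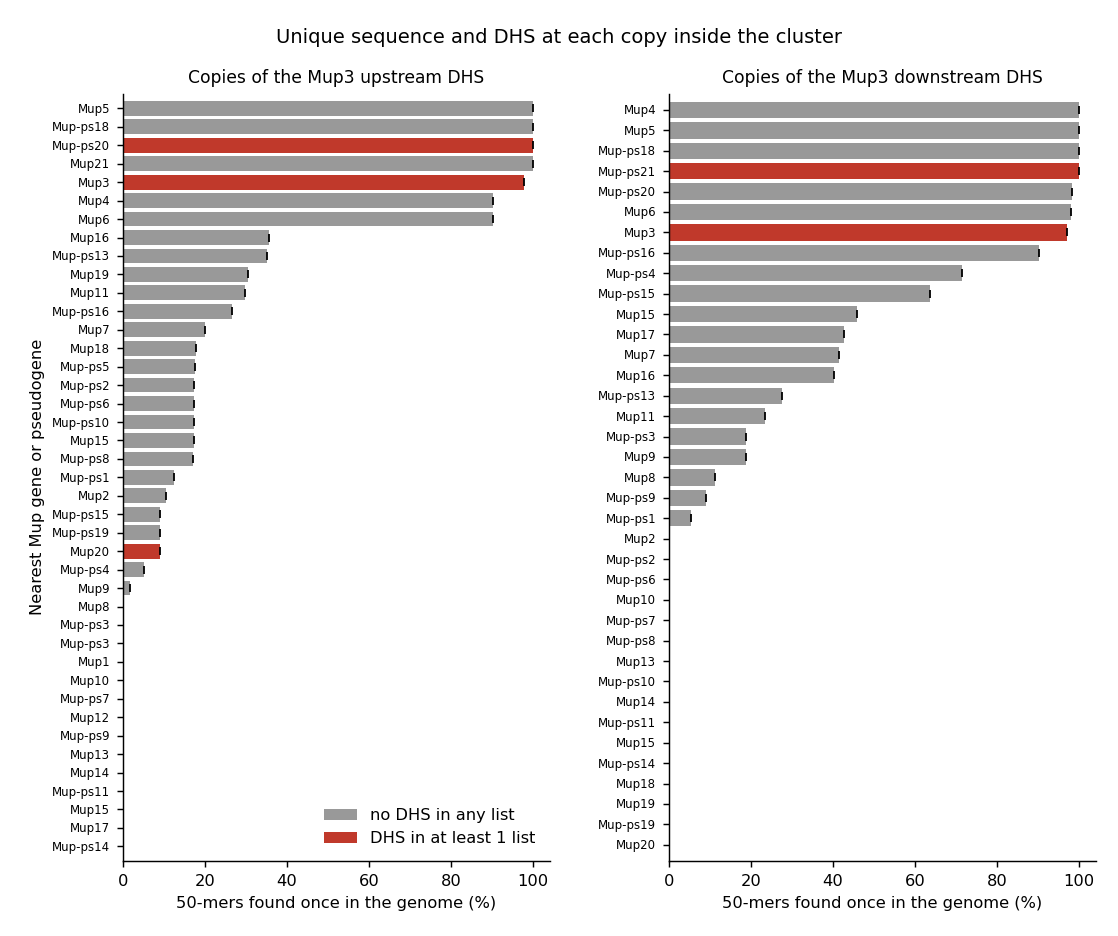
Share of 50-base sequences found once in mm9 (%) at each copy of the upstream (left) and downstream (right) Mup3 DHS sequence in the cluster, Mup3 included, labelled by the nearest Mup gene or pseudogene. Red bars are copies that overlap a DHS of any list, 3 on the left and 2 on the right, and the grey bars near 100% are unique copies without one.

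The 100 bases around the male B6 summit of the upstream region and their counterparts are set side by side, since copies with and without a DHS can be compared base by base. Capitals mark bases that differ from Mup3 or are absent from it, and bases missing from a copy are skipped. Mup-ps20 had a DHS in 2 lists, Mup20 in 1 and the others in none.
Mup3 (chr4:61749010-61749109, minus strand): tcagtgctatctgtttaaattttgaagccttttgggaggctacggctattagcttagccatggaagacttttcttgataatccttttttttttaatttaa
Mup-ps20 (chr4:61676649-61676734, minus strand): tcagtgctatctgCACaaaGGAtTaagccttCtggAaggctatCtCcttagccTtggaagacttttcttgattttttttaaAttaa
Mup20 (chr4:61715858-61715953, minus strand): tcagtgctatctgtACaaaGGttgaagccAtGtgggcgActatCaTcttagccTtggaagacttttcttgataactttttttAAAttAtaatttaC
Mup4 (chr4:59974218-59974306, minus strand): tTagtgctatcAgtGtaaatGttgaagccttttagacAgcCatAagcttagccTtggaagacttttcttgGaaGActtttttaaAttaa
Mup5 (chr4:61496936-61497023, minus strand): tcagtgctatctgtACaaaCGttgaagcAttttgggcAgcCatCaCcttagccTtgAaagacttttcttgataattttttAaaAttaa
Mup6 (chr4:60015588-60015684, plus strand): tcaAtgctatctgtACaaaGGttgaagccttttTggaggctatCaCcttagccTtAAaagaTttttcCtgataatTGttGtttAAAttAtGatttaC

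Identity to Mup3 over these stretches, gaps counted, was 73% for Mup-ps20 and 77.9% for Mup20, with a DHS, and 77% for Mup4, 75% for Mup5 and 72.8% for Mup6, without. The counterparts at Mup-ps18 (77%) and Mup21 (62.6%), not printed, also had no DHS. Identity to Mup3 did not separate the copies with a DHS from those without. At the Mup20 stretch only 17.7% of the 50-base sequences were unique. The Mup-ps20 DHS, chr4:61676539-61677496, had fold enrichments of 4.1 in male B6 and 3.02 in male CAST and was absent from both female lists, and its summit lay 810 bp upstream of the pseudogene. Besides the first Mup20 region, it was the only region of the cluster with this pattern.

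The downstream Mup3 sequence matched 36 other places, at 82.7% to 88.4% identity. Of the 9 with over 50% unique sequence, 1 had a DHS, and of the other 27, 0 had one. The single copy with a DHS was at Mup-ps21, in the region chr4:61688684-61689262 that lies just outside the window of Mup20, and it was in all 4 lists like that of Mup3. Its male values were above its female values, 5.38 against 3.15 in B6 and 6.88 against 4.47 in CAST. That order is usual in the series, where the median male to female ratio was 1.32 in B6 and 1.19 in CAST. The counterparts are printed in the same way, 94 to 105 bases each, and those of Mup4, Mup5 and Mup6 had no DHS.
Mup3 (chr4:61743909-61744008, minus strand): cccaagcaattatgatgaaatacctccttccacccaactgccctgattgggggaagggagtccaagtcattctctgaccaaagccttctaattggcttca
Mup-ps21 (chr4:61688846-61688950, minus strand): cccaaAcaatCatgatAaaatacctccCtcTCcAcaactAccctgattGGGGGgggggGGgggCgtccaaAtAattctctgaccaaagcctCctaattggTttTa
Mup4 (chr4:59969086-59969179, minus strand): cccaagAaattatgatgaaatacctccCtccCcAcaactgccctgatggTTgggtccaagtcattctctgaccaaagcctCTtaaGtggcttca
Mup5 (chr4:61491733-61491833, minus strand): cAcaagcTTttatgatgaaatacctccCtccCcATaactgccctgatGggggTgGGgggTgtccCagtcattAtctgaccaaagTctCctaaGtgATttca
Mup6 (chr4:60020599-60020692, plus strand): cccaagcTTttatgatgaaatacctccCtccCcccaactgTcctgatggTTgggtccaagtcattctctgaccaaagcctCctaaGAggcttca

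Identity to Mup3 here was 80% for Mup-ps21, with a DHS, and 85% for Mup4, 84% for Mup6 and 81.2% for Mup5, without. All 3 stretches without a DHS were unique at every position (100%). At Mup20 the counterpart, 76% identical to Mup3, had no 50-base sequence found once in mm9 (0%). No copy was matched near Mup21.

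The far Mup21 region matched the upstream sequence of other Mup genes. Its 300 bases were 91.3% identical to a stretch centred 916 bp upstream of Mup3, which overlaps the upstream Mup3 DHS, 86.7% to one 944 bp upstream of Mup20 and 88.7% to one 906 bp upstream of Mup6. In the same way the Mup21 start-site region was 92.4% identical to the start site of Mup3, which was under a DHS in male B6 and male CAST. Of 30 other copies of the far Mup21 sequence, 2 had a DHS, those at Mup3 and Mup-ps20. The Mup5 region matched 38 other places, and 1 of them, 10105 bp upstream of Mup-ps19, overlapped a DHS found in male CAST alone at 5.18 (chr4:61630627-61631249). Both were absent from the B6 lists.

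Motifs of factors known in hepatocytes and growth hormone signalling were searched on both strands in the 300 bases at each summit. STAT5, which growth hormone activates, and BCL6, a repressor that binds like sites, share the core TTCNNNGAA, and it was in 1 of 8 member regions, the upstream one of Mup3, against 10.2% of all 51482 regions. The C/EBP form TTGCNNAA was in 2 of 8 (17.2% of all), downstream of Mup3 and far upstream of Mup21, where it occurred at 2 places. The nuclear receptor core AGGTCA, part of sites of HNF4A and its relatives, was in 3 of 8 (26.0%), the upstream Mup3 region and the first and second Mup20 regions. The FOXA form TGTTTAC was in 1 of 8 (6.6%), at the second Mup20 region, and TGTTTGC in 0 of 8 (8.23%). CUX2, a repressor of male genes in female liver, binds forms such as ATCAAT, in 2 of 8 (13%), and ATCGAT, in 1 of 8 (1.85%). The HNF4A form CAAAGTCCA was in 0 of 8 (1.67%), 1 long HNF1 form in 0 of 8 (0.033%) and 1 long glucocorticoid receptor form in 0 of 8 (0.946%). Forms this rare among all regions would be missing from most sets of 8, so these counts say little. TGTTTGC and TTGCNNAA share letters and may fall on the same bases. A match is a run of letters, not a shown binding site.

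Mup3 was the member with the strongest start-site DHS, with a mean percentile of 66.3 over the lists. Mup20 was listed within 1 kb of its start in male CAST alone (54.3) and Mup21 in male B6 alone (36.9), and Mup4, Mup5 and Mup6 were at 0. Of 22367 protein-coding genes, those with the smallest summed difference from Mup3 over the 4 percentiles were Tmtc2 (2.77), Fam46c (3.79), Ptprd (4.5), Ttc38 (4.52) and Cdc73 (5.26). These are near neighbours in rank over 4 lists and nothing more is drawn from them.

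Other lipocalin genes, from a fixed list, gave a frame for these levels. Rbp4, the plasma carrier of retinol, had a start-site DHS of 5.91 for B6 males, 5.5 for B6 females, 7.09 for CAST males and 5.95 for CAST females. C8g, a complement subunit, had 4.9, 4.07, 5.63 and 4.58, and Ambp, the precursor of alpha-1-microglobulin and bikunin, had 3.18, 2.57, 2.41 and 3.19. The orosomucoid genes are acute phase lipocalins in a small cluster of near copies on the same chromosome. As with the Mup genes, not all lists had a start-site DHS at each: Orm1 had one in 3 lists, Orm3 in 2 and Orm2 in 1. Lcn2 had a start-site DHS in 1 list, Apod and Ptgds in none, and Obp2a is not in the annotation used. Among the protein-coding neighbours, Snx30 had a start-site DHS in all 4 lists and Slc46a2 in none, before the cluster, and Slc31a2 in 3 and Zfp37 in 2, after it.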

How the data were processed

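DNase-seq libraries of liver nuclei were sequenced by the authors as paired 50-base reads, of which only uniquely mapped ones were kept. They used Bowtie2, with B6 reads mapped to mm9 and CAST reads to a CAST version of mm9 whose coordinates were converted back. The 4 libraries of each group were merged before peaks were called with MACS2, and peaks in blacklisted regions or made of duplicate reads alone were removed. The deposited lists give for each peak a fold enrichment, the ratio of summit pileup to background with a pseudocount of 1, the −log10 p-value against that background, the −log10 q-value, a score adjusted over the list, and the summit offset. Groups were taken from library titles. Only these authors' values per peak were used, and read depths per library were not used here.

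Peaks overlapping by at least 1 bp were joined with Python (3.11.15), pandas (2.3.3) and the GENCODE annotation of mm9, within 20 kb of each gene. A gene's start site is that of its longest transcript. Pileups were recovered from ratio and p-value, and lay within 0.02 of a whole number for at least 99.9% of peaks. Joining and recovery were tested on simulated data. Sequence uniqueness was counted over all of mm9, copies were found with blastn (2.17.0, E-value 1e-10), and identities came from global alignments in Biopython (1.88). Coding sequence replaced protein sequence in these. Sequences were read from mm9.

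The named genes were all 6 members with every region in their windows, the other Mup genes and pseudogenes as counts with the lowest and highest named, a fixed list of lipocalin genes, the nearest 2 other protein-coding genes on each side and the 5 genes most like the leading member. Members, lists and motifs were chosen with earlier results of these data known. Comparisons between lists carry no p-value, since each group has 1 list.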

Additional observations from a re-analysis of the deposited data

How the results depend on the processing

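No paired analysis was possible because the 4 libraries of each group were merged before peaks were called, and leaving out single replicates was not possible either. Of 38 values under another setting, 29 stayed within 1.5 times the count reported and 9 moved beyond it or, for the unique share, changed. With a stricter threshold, a −log10 q of at least 15.7, the members held 5 regions in place of 8, male B6 3 in place of 5, female B6 0 in place of 2 and female CAST 0 in place of 3. Under it both Mup3 regions were in the male lists alone and Mup20 had a region in male CAST alone, and the calls between the strains fell to 3 in males and 0 in females. With lists of equal size, or with pileups scaled to the list with the lowest background, both Mup3 regions stayed in all 4 lists. Without centring, all 5 regions in B6 were called higher or found only in males, against 3. Counting the whole cluster instead of the windows, chosen after seeing the data, gave 14 regions. With sequences of 100 bases the unique share of the windows rose from 66.8% to 81.1%. Joining at 50% reciprocal overlap (11 regions), windows of 5 kb (6), lists of equal size, a 2-fold limit and summit pileups scaled to the list with the lowest background changed no count by more than 1.5 times. Female CAST had the lowest background, so its counts are the least precise, and sequence that occurs more than once in mm9 limits where reads could be placed.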

Other observations

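Outside the windows of the 6 genes, the cluster held 6 further DHS regions, all between Mup5 and Mup20. The widest, chr4:61636448-61638181, was 1734 bp wide and in all 4 lists, with a fold enrichment of 6.54 for B6 males, 3.75 for B6 females, 5.75 for CAST males and 4.7 for CAST females. It lay 16784 bp upstream of Mup-ps19, in sequence that is 96.0% unique, and unlike the other 13 regions of the cluster its 300 bases at the summit had no other match in the cluster by the rule used. Its male values were above its female values, and the median male to female ratio of all regions was itself 1.32 in B6 and 1.19 in CAST. The region at chr4:61681733-61682008 was in male B6 alone at 3.06.

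Of the regions in the cluster, 4 of 14 were in all 4 lists, against 35.6% of all regions of the series. In both male lists alone were 2 (9.38% of all), in both CAST lists alone 1 (3.62%), and in a single list 6 (35.2%). In the 500 kb before the cluster there were 15 regions, 11 for B6 males, 11 for B6 females, 14 for CAST males and 8 for CAST females. In the 500 kb after it there were 31, with 27, 14, 24 and 13 in the same order.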
